A study of Mus musculus with 11 samples.

Results

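The 37 genes described here encode the vesicular glutamate transporters, ionotropic and metabotropic glutamate receptors and GABA-A receptor subunits, taken as a named list from 21911 protein-coding genes of the mouse genome (GRCm38). They comprised 3 vesicular glutamate transporters, 4 AMPA, 5 kainate, 7 NMDA and 1 delta receptor subunit, 7 metabotropic glutamate receptors and 10 GABA-A receptor subunits. The list does not hold every gene of these families. Binding of the transcription factors (TFs) Brn3a and Runx3 at these genes was read from CUT&RUN peak lists of TrkC neurons, the future proprioceptors, of mouse dorsal root ganglia (DRG) at E12.5.

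In CUT&RUN micrococcal nuclease is tethered by an antibody to the DNA around its target in permeabilized cells, and the DNA fragments cut free are sequenced. Per the labels, all cells came from embryos of Runx3-BAC-GFP-CB6 transgenic mice, which carry a GFP reporter in a bacterial artificial chromosome of the Runx3 locus, and were sorted for GFP, so the transgene both chose the cells and added copies of the Runx3 locus in every library. There were 4 libraries with anti-Brn3a, 3 with anti-Runx3, 3 with an antibody to acetylated H3K27 and 1 with normal rabbit serum. The deposited Brn3a list held 32887 peaks (median width 171 bp) found in at least 2 of its libraries, and the Runx3 list 25885 peaks (176 bp) found in at least 2 of its libraries, of which 25883 were nuclear. These lists give positions only, with no height and no value per library, so binding strength and the spread between libraries could not be measured, and the read depth is unknown. All values below are therefore counts with no test.

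Glutamate is the transmitter of primary sensory neurons. Vesicular transporters load it into synaptic vesicles. AMPA, kainate and NMDA receptors are glutamate-gated cation channels built of 4 subunits, delta receptors are related proteins of synapse organization, and metabotropic receptors act through G proteins. GABA-A receptors are chloride channels of 5 subunits, and on the central terminals of sensory afferents GABA acting through them depolarizes the terminal and dampens glutamate release. Brn3a is the POU-homeodomain protein encoded by Pou4f1 and is made in most sensory neurons, and Runx3 is the RUNX-family TF that TrkC neurons depend on.

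A promoter peak is a peak centred at most 1000 bp from where a protein-coding transcript starts (its transcription start site, TSS). The regulatory domain of a gene ran from 5 kb upstream to 1 kb downstream of its 5′ end and was extended on either side to the window of the neighbouring protein-coding gene, by at most 1 Mb. Peaks of the lists that shared at least 1 bp are called co-bound, and the DNA they cover together a co-bound region. RUNX words are TGTGGT or TGCGGT, or with C as the last base TGTGGC or else TGCGGC, on either strand, and their number per Runx3 peak equals the deposited count of RUNX binding sites (RBS). A further Brn3 word, TTAATGA, and the homeodomain core ATTAAT, which reads the same on both strands and can overlap TTAATGA, were searched as well, and the authors' V$BRNF column marks Brn3a peaks with a Brn-family motif.

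The stretches below were chosen because they carry the main findings at these genes. The Slc17a6 and Gria2 stretches lie at the promoters of the transporter with most peaks and of the gene with promoter peaks of both lists. The remainder are, in the kainate, NMDA and metabotropic classes, the co-bound region of at most 300 bp nearest a 5′ end that held a RUNX word and a V$BRNF peak. The sequence is RefSeq GRCm38.p6, written 5′ to 3′ on the strand of the gene, and capitals mark RUNX words and ATTAAT.
Slc17a6 promoter peak, bases upstream of the gene (chr7:51621856-51622005, plus strand): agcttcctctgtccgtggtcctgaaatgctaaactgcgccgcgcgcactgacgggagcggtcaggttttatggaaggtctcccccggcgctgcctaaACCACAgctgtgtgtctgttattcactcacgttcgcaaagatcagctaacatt
Gria2 promoter region, bases upstream of the gene (chr3:80802836-80803043, minus strand): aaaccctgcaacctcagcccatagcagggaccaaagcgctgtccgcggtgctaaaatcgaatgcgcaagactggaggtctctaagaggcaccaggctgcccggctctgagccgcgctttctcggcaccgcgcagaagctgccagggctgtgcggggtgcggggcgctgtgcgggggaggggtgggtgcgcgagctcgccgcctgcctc
Grik3 intron 7 region (chr4:125656044-125656298, plus strand): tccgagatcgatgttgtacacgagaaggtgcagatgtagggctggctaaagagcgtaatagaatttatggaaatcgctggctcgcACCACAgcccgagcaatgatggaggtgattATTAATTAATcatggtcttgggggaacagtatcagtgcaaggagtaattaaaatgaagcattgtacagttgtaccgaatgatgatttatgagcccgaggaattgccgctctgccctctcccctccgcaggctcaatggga
Grin2b intron 3 region (chr6:135959711-135959950, minus strand): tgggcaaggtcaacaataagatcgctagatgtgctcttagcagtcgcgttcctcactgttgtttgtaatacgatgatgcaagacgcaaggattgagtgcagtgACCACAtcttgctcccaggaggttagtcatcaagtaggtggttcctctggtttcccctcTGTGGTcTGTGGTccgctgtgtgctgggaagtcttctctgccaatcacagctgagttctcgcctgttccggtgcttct
Grm4 intron 1 region (chr17:27519366-27519652, minus strand): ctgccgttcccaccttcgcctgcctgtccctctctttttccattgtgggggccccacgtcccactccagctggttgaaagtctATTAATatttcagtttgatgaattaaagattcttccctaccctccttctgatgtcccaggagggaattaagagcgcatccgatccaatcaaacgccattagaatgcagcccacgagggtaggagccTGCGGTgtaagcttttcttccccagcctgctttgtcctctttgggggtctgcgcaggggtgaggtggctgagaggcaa

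The upstream part of the Slc17a6 promoter peak held 1 RUNX word, and the Gria2 stretch, at 67.8% GC, held neither word. The Grin2b region had 3 RUNX words, 2 of them 1 base apart. The Grik3 and Grm4 regions each combined 1 RUNX word with ATTAAT, which occurred in Grik3 as overlapping copies. No stretch held TTAATGA. Among 26476 windows of 250 bp taken every 100000 bp along the genome, 29.3% held a RUNX word, 17.7% a RUNX word ending in T, 9.51% ATTAAT and 5.44% TTAATGA, so a match in a stretch of this length is common.

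Few members had a promoter peak. A Brn3a promoter peak was found at 3 of the 37 genes, or 8.11% (Wilson 95% interval 2.80% to 21.3%), against 20.7% of all protein-coding genes. A Runx3 promoter peak was found at 8 of 37, or 21.6% (11.4% to 37.2%), against 36.2% of all genes. Gria2 was the only member with promoter peaks of both lists, against 14.8% of all genes. Among the 22 members with domains of 500 kb or more the shares were 13.6% (4.75% to 33.3%) for Brn3a and 22.7% (10.1% to 43.4%) for Runx3, against 26.4% and 36.4% of all 2460 genes with such domains. The members' shares were thus lower throughout, but each interval, which covers the counting of genes only, reached the share of its background. With promoters of 2000 bp the counts were 8 for Brn3a and 13 for Runx3.

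The Brn3a promoter peaks belonged to Gria2, the AMPA subunit whose edited form makes the channel nearly impermeable to calcium, and to Grin2a and Grin2b, which encode glutamate-binding NMDA subunits. Their centres lay 69, 130 and 147 bp upstream of the gene's 5′ end in Gria2, Grin2a and Grin2b. The Grin2a peak lay 767 bp upstream of the nearest protein-coding TSS and so was not counted with promoters of 500 bp. Of these peaks, that of Grin2a (chr16:9995634-9995746) carried the V$BRNF motif, and those of Gria2 (chr3:80802799-80803010) and Grin2b (chr6:136173592-136173724) did not.

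The Runx3 promoter peaks belonged to Slc17a6, Gria2, Gria4, Grik2, Grik5, Grm3, Gabra2 and Gabrb1. Those of Slc17a6 (chr7:51621856-51622074), Gria4 (chr9:4796134-4796379) and Grik2 (chr10:49788689-49788895) were centred 41, 22 and 26 bp upstream of the 5′ end, and each held a RUNX word. Gria4, an AMPA subunit with fast kinetics, had a further Runx3 peak 149 bp upstream of an internal TSS, 566 bp into the gene. Grik5, a kainate subunit that needs a partner of the Grik1 to Grik3 type to form channels, had its peak 585 bp upstream, within an intron of the neighbouring Zfp574.

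The remaining promoter peaks held no RUNX word. That of Gria2 (chr3:80802911-80803043) overlapped its Brn3a peak, 142 bp upstream. The Runx3 peak of Grm3, 975 bp upstream, overlapped a Brn3a peak centred 1018 bp upstream, just outside the promoter window. Gabra2 had a Runx3 peak 554 bp upstream, and the peak of Gabrb1 (chr5:71700848-71701017) lay 42.8 kb inside the gene, exactly 1000 bp downstream of an internal TSS. Grm8 had a Runx3 peak 898 bp upstream of the gene's annotated 5′ end, which is not the start of a protein-coding transcript, so it was not counted.

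Away from promoters the genes held many peaks. Their domains, 25.4 Mb together, contained 244 Brn3a peaks and 123 Runx3 peaks, each counted once. When each peak was given only to the gene with the nearest 5′ end, 147 and 69 remained with the members. The full domains gave 1.98 Brn3a peaks per Runx3 peak, against 1.26 over the domains of all genes and 1.83 over those of all genes with domains of 500 kb or more. At least 1 Brn3a peak was present in 30 of 37 domains (57.7% of all genes) and at least 1 Runx3 peak in 25 (63.1% of all genes). More Brn3a than Runx3 peaks were found in 20 domains, fewer in 5 (Gria2, Gria4, Grik5, Grid1 and Grm2), and equal numbers in 12.

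**Figure D1:**
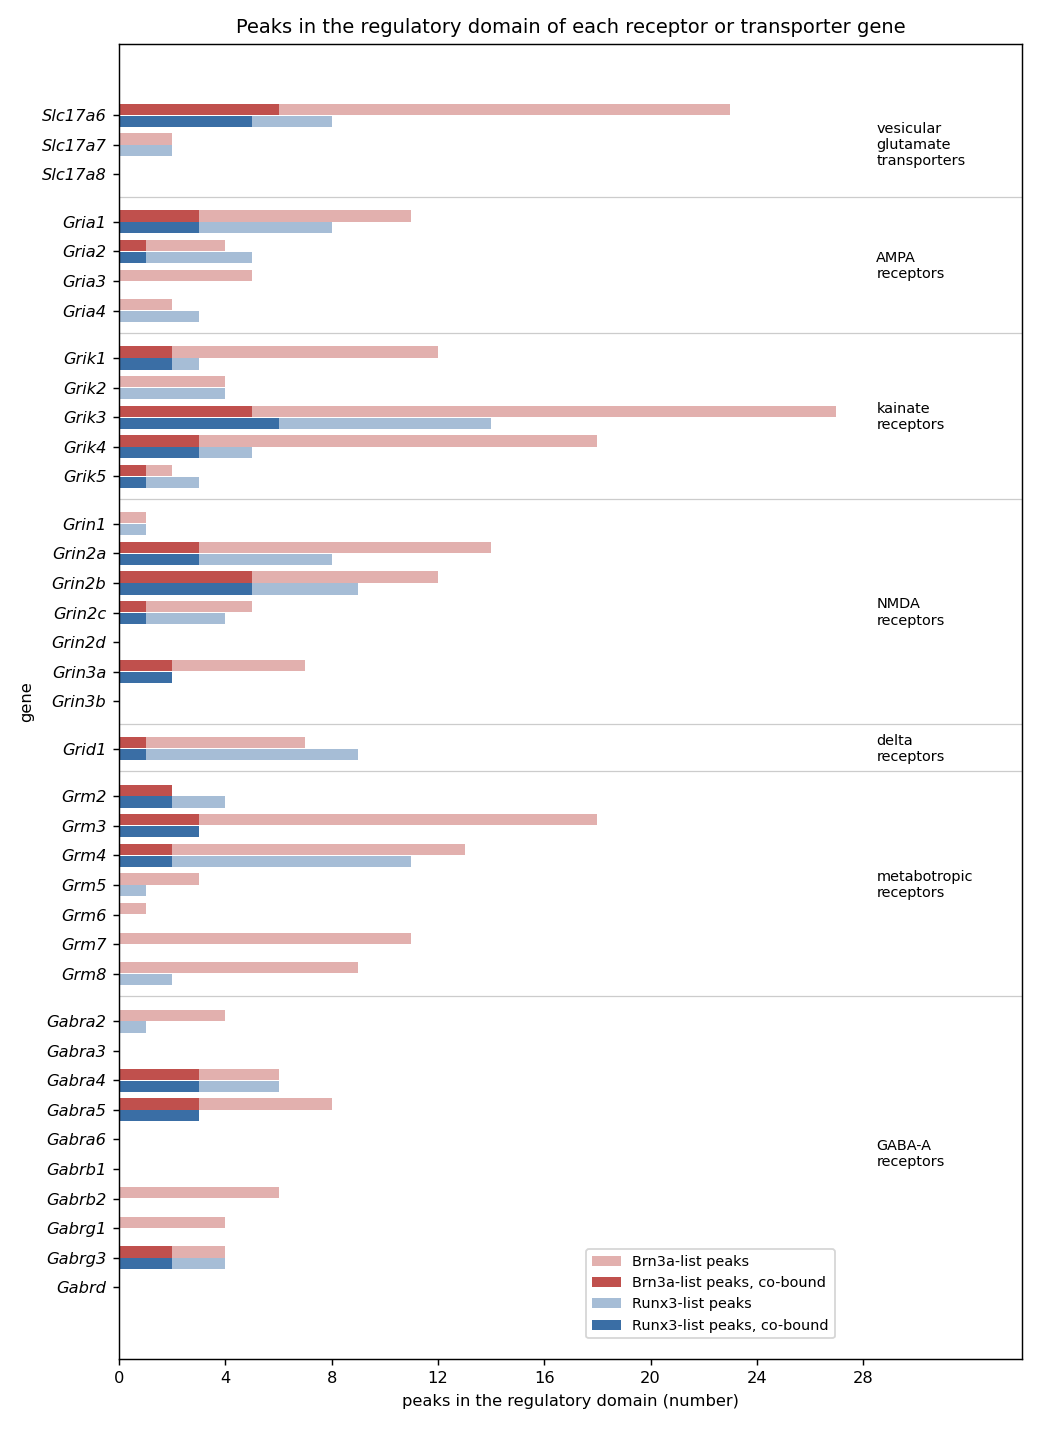
Number of peaks in the regulatory domain of each of the 37 genes, grouped by class, with the Brn3a bar above the Runx3 bar and the co-bound part of each bar in full colour. Grik3 had 27 Brn3a and 14 Runx3 peaks and Slc17a6 had 23 and 8, whereas 7 genes had none.

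Domain length differs widely between genes, and long domains can hold more peaks. The median domain of the members was 705 kb, against 90.04 kb for all genes. Per Mb of domain the members held 9.61 Brn3a and 4.85 Runx3 peaks, against 12.47 and 9.89 over all genes. The 22 members with domains of 500 kb or more held 8.30 and 3.83 per Mb, against 10.7 and 5.87 over all such genes, whereas the 15 members with shorter domains held 24.7 and 16.7, against 14.8 and 14.5. Within bands of domain length, 16 members lay above, 4 at and 17 below the median Brn3a count of their band, and 14 lay above, 3 at and 20 below the median Runx3 count. Members with long domains thus held fewer peaks per Mb than other genes of that length. The short domains of members held more when pooled, and neither difference was tested. Of the 49 Brn3a and 33 Runx3 peaks in these short domains, Slc17a6 held 23 and 8 and Grm4 held 13 and 11. The median member with a short domain held 1 Brn3a and 0 Runx3 peaks, against 1 and 1 for all such genes. No peak of either list was found at 7 of these 15 members.

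**Figure D2:**
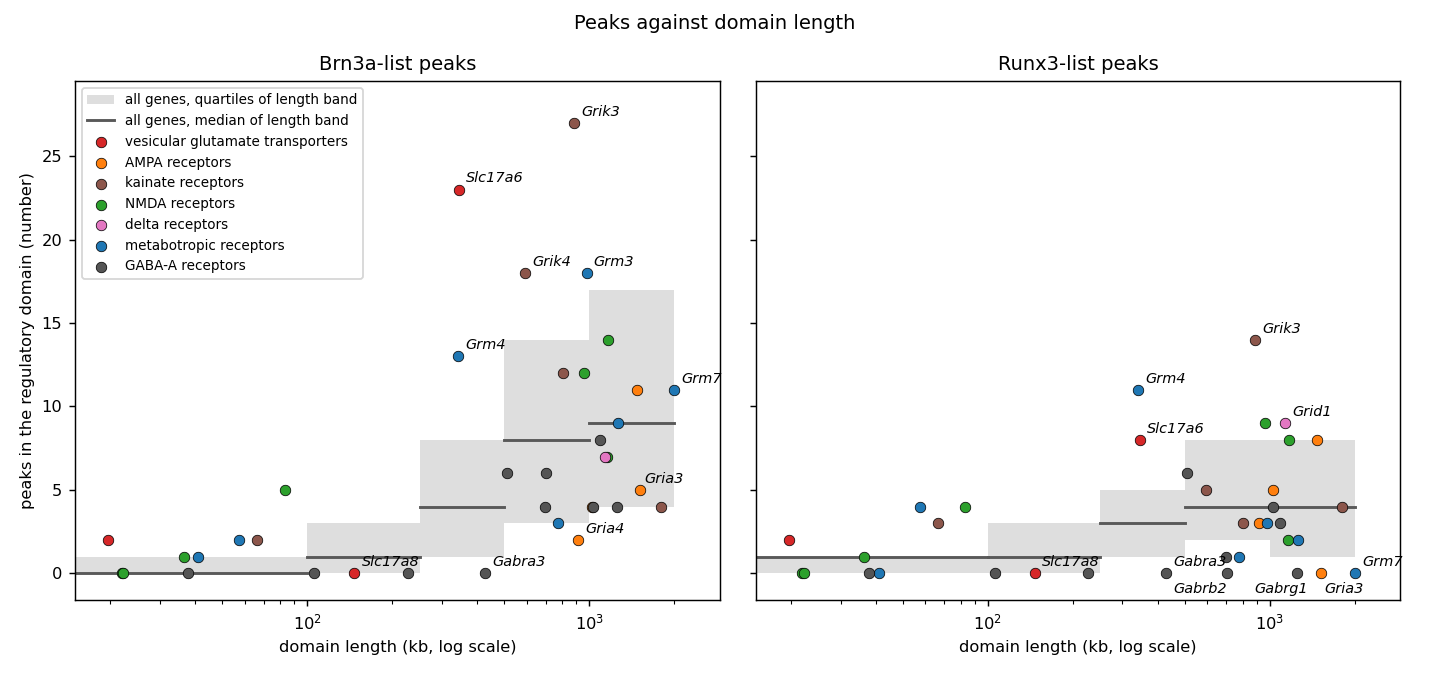
Peaks in the domain (vertical axis) against domain length in kb (horizontal axis, log scale) for Brn3a (left) and Runx3 (right), with each member as a point coloured by class, and the median and quartiles of all genes per length band in grey. Among domains over 250 kb, Slc17a6, Grm4, Grik3, Grik4 and Grm3 stand above the Brn3a quartiles of their bands, and Gria3, Grm7, Gabrb2 and Gabrg1 have Brn3a peaks but no Runx3 peak. The Grm3 count includes peaks in introns of a neighbouring gene.

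Slc17a6 (VGLUT2), the vesicular glutamate transporter of most DRG neurons, had the most Brn3a peaks per Mb of the members with domains over 100 kb. Its domain of 345 kb on chromosome 7 held 23 Brn3a and 8 Runx3 peaks, where the median gene of its length band (250 to 500 kb) held 4 and 3. More Brn3a peaks per Mb than in 99.7% of the 2429 genes of that band, and more Runx3 peaks per Mb than in 88.3%, were found there. The first Brn3a peak lay 1.25 kb downstream of the 5′ end in intron 1, and 9 Brn3a peaks lay in the first 14.1 kb of the gene. A further run of 8 Brn3a peaks lay in intergenic DNA between 114 and 132 kb downstream of the 5′ end, beyond the gene, which is 49.1 kb long. V$BRNF marked 20 of the 23 Brn3a peaks, and RUNX words were in 4 of the 8 Runx3 peaks.

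Co-binding at Slc17a6 was seen at 5 regions. The nearest lay in intron 3, 7.36 kb from the 5′ end (chr7:51629305-51629436), and held neither a RUNX word nor a V$BRNF peak. Also in intron 3, the region at 10.9 kb (chr7:51632653-51633232) held both. The other 3 lay 132, 210 and 219 kb downstream in intergenic DNA. Of these, the last had 2 RUNX words and no V$BRNF peak, and the others had V$BRNF and no RUNX word. The promoter peak itself was in the Runx3 list alone.

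Slc17a7 (VGLUT1), which proprioceptive afferents use at their central terminals, has a domain of only 19.6 kb. It held 2 Brn3a and 2 Runx3 peaks. Of the 11724 genes with domains under 100 kb, 97.4% held fewer Brn3a peaks per Mb and 94.2% fewer Runx3 peaks per Mb. No promoter peak was called, since the nearest Brn3a peak lay 1.42 kb and the nearest Runx3 peaks 1.67 and 1.89 kb upstream, and the Brn3a and Runx3 peaks there did not overlap. The remaining Brn3a peak lay in intron 9. Slc17a8 (VGLUT3) had no peak of either list in 147 kb, and the nearest peaks were 111 kb from its 5′ end.

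**Figure D3:**
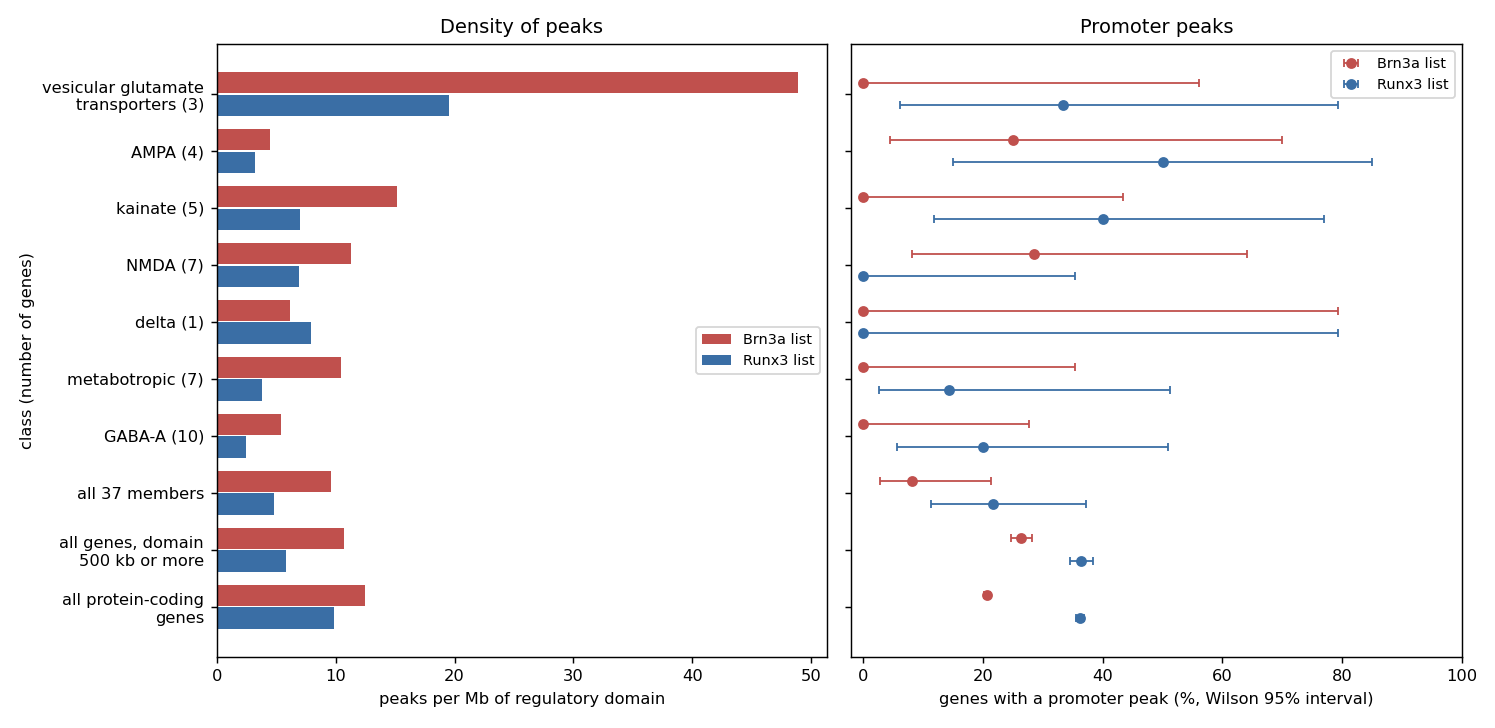
Peaks per Mb of regulatory domain (left) and percent of genes with a promoter peak with Wilson 95% intervals (right) for each class, all 37 members and all genes, with Brn3a above Runx3. The transporters held 48.9 Brn3a and 19.6 Runx3 peaks per Mb, with 23 of their 25 Brn3a and 8 of their 10 Runx3 peaks at Slc17a6, and the AMPA and GABA-A genes the fewest Brn3a peaks per Mb.

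The AMPA genes mediate fast excitation. Their 4.93 Mb of domain held 22 Brn3a and 16 Runx3 peaks, or 4.46 and 3.24 per Mb, against 10.7 and 5.87 over all genes with domains of 500 kb or more. Gria1 held 11 and 8, Gria2 held 4 and 5 and Gria3 held 5 and 0, against medians of 9 and 4 in genes with domains of 1000 kb or more. Gria4 held 2 and 3, against band medians of 8 and 4. By count, Gria1 thus lay above both medians and Gria2 above the Runx3 median, and the other counts of the class lay below. Per Mb of domain, 49.9% of the genes of its band held fewer Brn3a peaks than Gria1. The Runx3 peaks of Gria2 include a peak in an exon of Fam198b, 917 kb downstream, and another in an intron of Glrb. Their assignment to Gria2 rests on the domain rule. Gria1, a subunit important in activity-dependent changes of synaptic strength, had most peaks of the class, and Gria3 on the X chromosome had Brn3a peaks alone, 4 of them in its introns.

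Co-bound AMPA regions numbered 3 at Gria1 and 1 at Gria2. The nearest at Gria1 lay in intron 2, 17.5 kb from the 5′ end (chr11:57028767-57029015), and held V$BRNF and ATTAAT without a RUNX word. The Gria2 region is the promoter stretch shown above. Gria4 had 2 of its 3 Runx3 peaks at TSSs and no Brn3a peak closer than 77.7 kb.

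Kainate genes held 63 Brn3a and 29 Runx3 peaks, at 15.2 and 6.99 peaks per Mb. Grik3, a subunit with low affinity for glutamate, had the most peaks of both lists among all members, with 27 Brn3a and 14 Runx3 peaks against band medians of 8 and 4. Grik4, a high-affinity auxiliary subunit, followed with 18 and 5. Its domain of 593 kb was occupied mostly within the gene, which held 16 of the 18 Brn3a and 4 of the 5 Runx3 peaks. The Grik4 gene is 426 kb long and so fills most of its domain. Grik3 is 223 kb long in a domain of 887 kb. There, 7 Brn3a and 5 Runx3 peaks lay in the gene and the rest on both sides of it.

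Grik1 held 12 Brn3a and 3 Runx3 peaks, and Grik2 held 4 and 4. Grik5, whose domain spans 66.4 kb, held 2 and 3. Grik1 thus lay above its band median for Brn3a (8) and below it for Runx3 (4), Grik2 lay below it for Brn3a (9) and at it for Runx3 (4), and Grik5 lay above both (0 and 1). Both Brn3a and Runx3 peaks were thus present at every kainate gene. Peaks are common in long domains such as those of Grik1 to Grik4. Of all genes with domains of 500 kb or more, 89.2% had a Brn3a and 84.8% a Runx3 peak. In the band of Grik5, under 100 kb, the shares were 39.6% and 51.1%.

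Grik3 had 5 co-bound regions, which contained 6 co-bound Runx3 peaks. The nearest, in intron 7 at 165 kb, is shown above, and a region in intron 13 at 206 kb (chr4:125696223-125696757) held 2 Runx3 peaks, 2 RUNX words and V$BRNF. The other 3 lay 201, 208 and 304 kb upstream. At Grik4 the nearest co-bound region lay 14.0 kb upstream (chr9:42958381-42958674) and held V$BRNF without a RUNX word, and a region in intron 3 at 142 kb (chr9:42801910-42802323) held 4 RUNX words and no V$BRNF peak. Grik1 had co-bound regions in intron 1 at 108 kb and 503 kb downstream in intergenic DNA. That of Grik5, 4.74 kb upstream, lay in an intron of Zfp574 and in the promoter window of another gene.

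**Figure D4:**
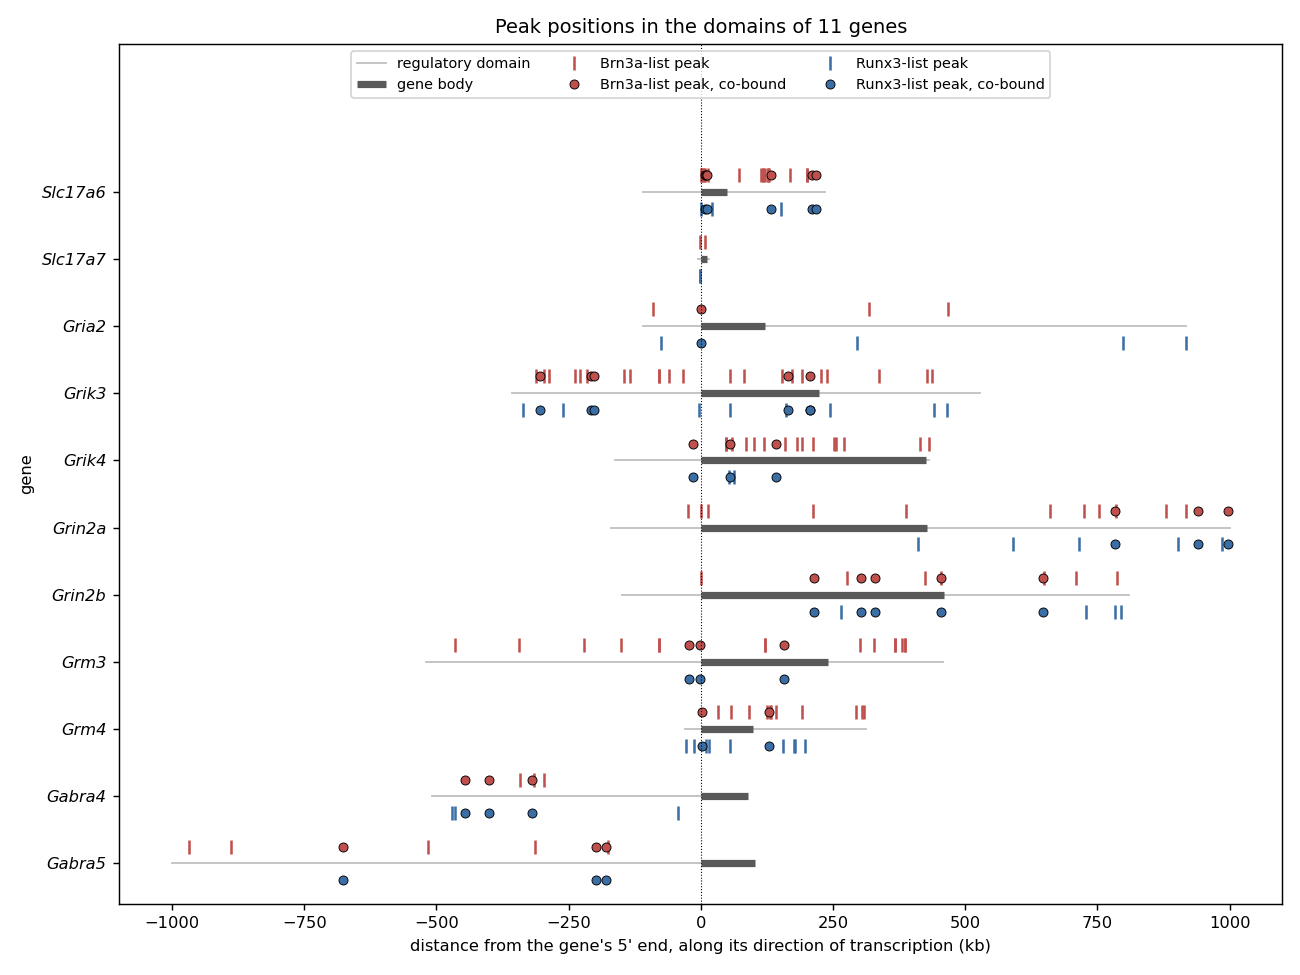
Positions of Brn3a peaks (above each line) and Runx3 peaks (below) in the domains of 11 genes, as distance in kb from the 5′ end along the direction of transcription, with thick lines for gene bodies and circles for co-bound peaks. All 23 Brn3a peaks of Slc17a6 lie downstream of its 5′ end, 16 of the 18 of Grik4 lie in the gene, and 9 of the 14 of Grin2a lie over 500 kb downstream.

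NMDA genes split by domain length. Grin2a held 14 Brn3a and 8 Runx3 peaks and Grin2b held 12 and 9, against band medians of 9 and 4 for Grin2a and 8 and 4 for Grin2b. Grin3a, whose product lowers the calcium permeability of NMDA receptors, held 7 and 2. Grin2c, with a domain of 83.2 kb, held 5 and 4, with more Brn3a peaks per Mb than 92.8% of genes in its band. None of the Grin2c peaks lay in the gene itself, and most lay in the adjacent Tmem104, so their assignment to Grin2c rests on the domain rule.

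Grin1, the obligatory subunit of NMDA receptors, held 1 Brn3a and 1 Runx3 peak, both in exons. Grin2d and Grin3b, with domains of 21.9 and 22.2 kb, held none, although 1 Runx3 peak lay in the body of Grin2d beyond its domain. Most peaks of Grin2a were far from it, with 9 of 14 Brn3a and 7 of 8 Runx3 peaks more than 500 kb downstream of the 5′ end. Those of Grin2b were spread over the gene, which held 7 of 12 Brn3a and 5 of 9 Runx3 peaks.

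Grin2b had 5 co-bound regions, and every Runx3 peak in its gene apart from that at 266 kb was co-bound. The region nearest the 5′ end, in intron 3 at 214 kb, is shown above with its 3 RUNX words. Another overlapped exon 14 at 454 kb (chr6:135719593-135719912) and held a RUNX word and V$BRNF. The 3 co-bound regions of Grin2a lay 784, 941 and 998 kb downstream. Those of Grin3a lay 46.5 and 395 kb upstream, and that of Grin2c lay in an intron of Tmem104.

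Grid1 encodes a delta receptor, which joins presynaptic partners across the cleft more than it conducts current. Its domain held 7 Brn3a and 9 Runx3 peaks, against band medians of 9 and 4. The gene body, 763 kb long, contained all 7 Brn3a and 8 of the 9 Runx3 peaks. Only 1 region was co-bound, in intron 3 at 149 kb (chr14:34969183-34969710), and it held a RUNX word and V$BRNF. With 0.778 Brn3a peaks per Runx3 peak this was the only class with more Runx3 than Brn3a peaks, which turned round when only the wider peaks were counted (1.33).

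Metabotropic receptor genes held 57 Brn3a and 21 Runx3 peaks, or 2.71 Brn3a peaks per Runx3 peak. The ratio at the transporters was 2.50, and the order of these classes turned round with extension by at most 500 kb (2.47 against 2.50) and with the wider peaks (3.22 against 3.33). Most Runx3 peaks belonged to Grm4, a presynaptic receptor coupled to inhibitory G proteins, whose domain of 342 kb held 13 Brn3a and 11 Runx3 peaks. Only 4 and 3 were found at the median gene of that band. Per Mb of domain, 94.7% of the band's genes had fewer Brn3a and 95.5% fewer Runx3 peaks than Grm4. Grm3, which shares its coupling and can be found on neurons and glia, held 18 and 3, and all 3 Runx3 peaks were co-bound. Only 3 of the 18 Brn3a peaks lay in Grm3 itself. Several others, 300 to 386 kb downstream of its 5′ end, lay in introns of the neighbouring 9330182L06Rik. The assignment of these to Grm3 rests on the domain rule.

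Grm2, close to Grm3 in sequence and function, held 2 Brn3a and 4 Runx3 peaks in 57.3 kb, with more Runx3 peaks per Mb than 89.1% of its band. Grm7 and Grm8, inhibitory presynaptic receptors like Grm4, have long domains. Grm7 held 11 Brn3a peaks and no Runx3 peak in 2000 kb, and Grm8 held 9 and 2. Grm5, which couples to calcium release, held 3 and 1, and Grm6, known from retinal bipolar cells, held 1 and 0 in 41.0 kb, the peak lying in the neighbouring Zfp454. Grm6 and Grm7 thus had Brn3a peaks alone.

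Co-bound regions were found at Grm2, Grm3 and Grm4. The nearest at Grm4 lay in intron 1, 1.89 kb from the 5′ end, and is shown above. The other lay 128 kb downstream and held 2 RUNX words without V$BRNF. The regions of Grm3 lay 0.982 and 23.2 kb upstream and in intron 3 at 157 kb. That at 23.2 kb (chr5:9748221-9748482) held 2 RUNX words and V$BRNF. At Grm2 the nearest lay 3.39 kb upstream in an intron of Tex264 and the other 28.0 kb downstream.

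GABA-A genes held the fewest Runx3 peaks per Mb, with 31 Brn3a and 14 Runx3 peaks in 5.74 Mb, or 5.40 and 2.44 per Mb. Many of them lie side by side. Gabrg1, Gabra2, Gabra4 and Gabrb1 form a cluster on chromosome 5, Gabra5 and Gabrg3 lie together on chromosome 7 and Gabra6 and Gabrb2 on chromosome 11. The chromosome 5 cluster held 13 Brn3a and 7 Runx3 peaks, the chromosome 7 pair 12 and 7, and the chromosome 11 pair 6 and 0. A Brn3a peak in an intron of Gabra2 fell in the domains of Gabra2 and Gabrg1 and was counted once here.

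Gabra5, an alpha subunit of extrasynaptic receptors, held 8 Brn3a and 3 Runx3 peaks, all of them upstream of its 5′ end. Gabra4 held 6 and 6, against band medians of 8 and 4. Per Mb of domain, 51.3% of the genes of its band held fewer Brn3a and 76.3% fewer Runx3 peaks. Since Gabra4 and Gabrb1 start head to head, the domain of Gabra4 covers most of the Gabrb1 gene, and each of its 6 Brn3a and 6 Runx3 peaks lay within an intron of Gabrb1. The domain of Gabrb1, 106 kb long, runs away from its own gene and held no peak. These peaks can be read as belonging to either gene.

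Gabrg3 held 4 Brn3a and 4 Runx3 peaks, Gabra2 held 4 and 1, Gabrb2 held 6 and 0, and Gabrg1 held 4 and 0. The Brn3a counts of all 4 were below the medians of their bands, which were 8 or 9. Gabra3, Gabra6 and Gabrd, with domains of 428, 227 and 37.8 kb, held none. Gabra3 is the longest domain of the list without a peak, in a band where 85.8% of genes had a Brn3a and 83.2% a Runx3 peak. Gabrd encodes the delta subunit of receptors that carry tonic current.

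Co-bound GABA-A regions numbered 3 at Gabra4, 3 at Gabra5 and 2 at Gabrg3, so 8 of the 14 Runx3 peaks, 57.1% (32.6% to 78.6%), were co-bound. The nearest to Gabra4 lay 318 kb upstream (chr5:71976489-71977051). No co-bound GABA-A region lay within 100 kb of a 5′ end.

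Over all members, 48 of 123 Runx3 peaks, or 39.0% (30.9% to 47.9%), were co-bound, against 32.6% in the domains of all genes and 39.4% in those of all genes with domains of 500 kb or more. Of the Brn3a peaks 48 of 244, or 19.7% (15.2% to 25.1%), were co-bound, against 25.7% and 21.4%. A co-bound Runx3 peak was present at 18 of 37 genes, against 31.9% of all genes. Among the members with domains of 500 kb or more, 22 of 22 had a Brn3a peak (89.2% of all such genes), 18 a Runx3 peak (84.8%) and 13 a co-bound Runx3 peak (68.5%). The share of co-bound peaks was thus close to that of other genes with long domains.

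The 47 co-bound regions had a median width of 294 bp and lay at a median of 197 kb from the 5′ end. Of these, 17 lay in the member's own gene, 8 in another gene and 22 in intergenic DNA. Only 5 lay within 5 kb of the 5′ end, at Gria2, Grm3, Grm4, Grm2 and Grik5, and 33 lay over 100 kb away. A RUNX word was present in the Runx3 peak of 27 regions and V$BRNF in the Brn3a peak of 33, with both in 18 and neither in 5. The promoter regions of Gria2 and Grm3 were among those with neither.

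Word content was compared between co-bound and other peaks outside promoters. V$BRNF was present in 71.7% (57.5% to 82.7%) of 46 co-bound and 75.3% (68.7% to 80.8%) of 194 other Brn3a peaks of the members, against 62.9% and 59.4% in the whole Brn3a list. TTAATGA was present in 8.70% (3.43% to 20.3%) of co-bound and 14.4% (10.2% to 20.1%) of other Brn3a peaks, against 10.95% and 10.5% in the whole list. In windows of 200 bp around the peak centres TTAATGA was present in 4.35% (1.20% to 14.5%) of co-bound and 13.4% (9.31% to 18.9%) of other Brn3a peaks. The intervals overlapped between co-bound and other peaks for each word, and a difference in Brn3 words was not tested.

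RUNX words differed between co-bound and other Brn3a peaks, a split made by overlap with Runx3 peaks and so not independent of these words. A RUNX word ending in T was found in 43.5% (30.2% to 57.8%) of the co-bound and 13.4% (9.31% to 18.9%) of the other Brn3a peaks, and the whole list had 38.9% and 13.4%. In windows of 200 bp around the peak centres the members' shares were 32.6% (20.9% to 47.0%) and 13.4% (9.31% to 18.9%). In the Runx3 peaks the same word was found in 44.4% (30.9% to 58.8%) of 45 co-bound and 53.7% (41.9% to 65.1%) of 67 other peaks, against 42.6% and 55.8% in the whole list. ATTAAT was found in 15.6% (7.75% to 28.8%) of co-bound and 5.97% (2.35% to 14.4%) of other Runx3 peaks, intervals that overlap, against 13.7% and 3.08% in the whole list.

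**Figure D5:**
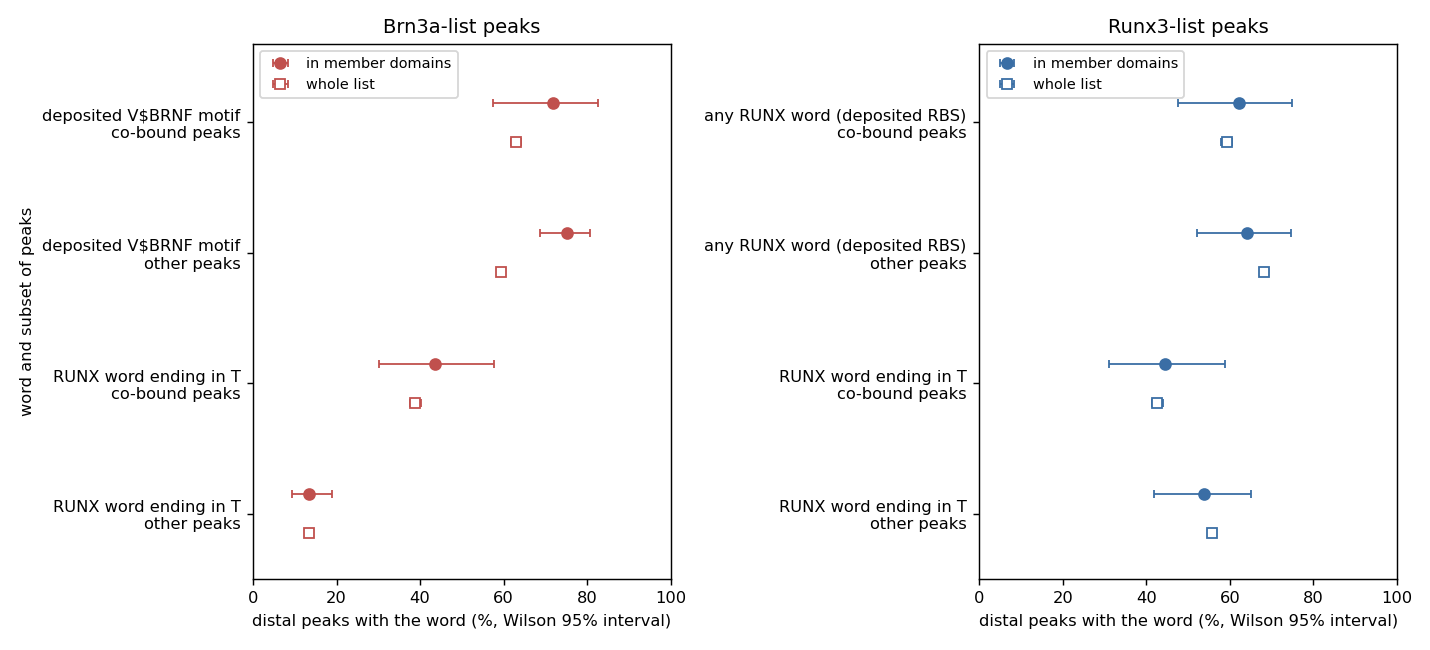
Percent of peaks outside promoters with a motif, for Brn3a peaks (left) and Runx3 peaks (right), split into co-bound and other peaks, with Wilson 95% intervals and filled circles for member domains and open squares for the whole list. Co-bound Brn3a peaks of the members hold RUNX words ending in T in 43.5%, and their other Brn3a peaks in 13.4%.

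V$BRNF was frequent in the members' Brn3a peaks as a whole. Of all 244, 73.8% (67.9% to 78.9%) carried it, against 53.9% in the domains of all genes and 65.7% in those of genes with domains of 500 kb or more. By class it ranged between 60.3% in kainate and 90.9% in AMPA genes. RUNX words were found in 62.6% (53.8% to 70.6%) of the 123 Runx3 peaks, against 61.2% and 63.3%. Only 4 of the 244 Brn3a peaks, or 1.64%, and 11 of the 123 Runx3 peaks, or 8.94%, lay in a promoter window of any gene, against 14.5% and 33.0% over all genes and 4.93% and 12.49% over genes with long domains.

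Genes that work with these receptors were read from lists of partners. Of 13 auxiliary subunits of AMPA and kainate receptors, 3 had a Brn3a and 6 a Runx3 promoter peak, or 23.1% and 46.2%, against 20.7% and 36.2% of all genes. Their domains held 94 and 40 peaks, or 17.5 and 7.45 per Mb, against 12.47 and 9.89 over all genes and 10.7 and 5.87 over those with domains of 500 kb or more. Cnih3, a cornichon that slows AMPA receptor closing, held 22 Brn3a and 8 Runx3 peaks against band medians of 4 and 3, and Cacng5, a transmembrane AMPA regulator, held 21 and 9 against 8 and 4. Of 13 postsynaptic scaffolds, 3 had a Brn3a and 4 a Runx3 promoter peak, or 23.1% and 30.8%, with 20.3 and 10.8 peaks per Mb. Grip1, which binds AMPA receptor tails, had most Brn3a peaks of the scaffolds, with 40 and 9 against 8 and 4.

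The genes of glutamate supply and uptake held 31 Brn3a and 27 Runx3 peaks over 7 genes, with promoter peaks at 3 and 3, or 42.9% each. Among them Slc1a2, a glutamate transporter best known from astrocytes, held 7 and 12 against band medians of 4 and 3, and Slc1a3, another transporter of glial cells, held 10 and 5 against the same medians. Of 11 genes of GABA synthesis, transport and the inhibitory synapse, 3 had a Brn3a and 5 a Runx3 promoter peak, or 27.3% and 45.5%. With 7 to 13 genes a list, these shares were not tested against the background. Of the enzymes that make GABA, Gad1 held 0 Brn3a and 2 Runx3 domain peaks and Gad2 held 1 and 6. Gphn, the gephyrin scaffold of inhibitory synapses, had 2 promoter peaks of each list.

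As a check on the labelled cells, the peaks at marker genes were counted, although peak lists hold no expression. The TrkC neuron markers Ntrk3, Runx3, Pou4f1, Isl1 and Etv1 had 331 Brn3a and 121 Runx3 domain peaks, of which 231 and 76 lay at Runx3, the locus carried by the transgene. Of glia and crest markers, Sox10 had 1 and 1 and Erbb3 had none. The endothelial markers Pecam1, Cdh5 and Kdr had 31 and 9 together. Of blood markers, Ptprc had 27 and 9, against band medians of 9 and 4, and Hba-a1 had none. Ntrk3, in the same length band as Ptprc, had 24 and 13. No promoter peak was found at Sox10, Erbb3, Ptprc, Hba-a1 or the endothelial markers, and none at Ntrk3 either. Promoter peaks of at least 1 list were found at 4 of the 5 TrkC markers, against 9235 of all 21911 genes. With 5 markers this difference was not tested. The counts thus did not set every TrkC marker apart from the markers of other cells. Whether other cells in the sort contributed peaks was not tested. The members lie outside the Runx3 domain.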

How the data were processed

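The deposited consensus peak lists of E12.5 DRG TrkC neurons for Brn3a and Runx3 were analysed. In the submitters' processing notes cutadapt, Bowtie, MACS2 and the build GRCm38 (mm10) are named, and versions, peak-calling settings and the part played by the serum control are not given in the sources used here. Per the file headers, the authors kept peaks found in at least 2 of 4 Brn3a or 2 of 3 Runx3 libraries. The deposited values are positions, a count of RUNX words per Runx3 peak and a score of 0 or 1 for V$BRNF per Brn3a peak. Positions read as 1-based gave the deposited count in 25883 of 25883 nuclear peaks. The 2 mitochondrial Runx3 peaks were left out. The H3K27Ac table was identical to the Runx3 table and was not used, and a serum list was not analysed here.

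Genes were those of GENCODE M21, 1 per symbol, and the sequence was RefSeq GRCm38.p6. Peaks were assigned by their centre, and length bands had bounds at 100, 250, 500 and 1000 kb. Shares have Wilson 95% intervals, which cover counting only, and no test was made, since the lists hold no value per library and genes are not replicates. The members, gene lists and motifs were chosen with earlier results of these data known. Every member was accounted for, and positions are given for the transporters, genes with a promoter peak, the 2 genes with most peaks in each class and the co-bound regions nearest their 5′ ends, except a few regions and genes not reported here. Further co-bound regions are given by number. Alternatives were promoters of 500 or 2000 bp, the gene's 5′ end alone, any overlap in place of the centre, extension by at most 500 kb, the nearest 5′ end, peaks of at least the median width of their list, co-binding by windows of 300 bp and words within windows of 200 bp. The counting was tested on simulated positions. Python 3.11.15, numpy 2.4.6, scipy 1.17.1 and matplotlib 3.10.9 were used.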

Additional observations from a re-analysis of the deposited data

How the results depend on the processing

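Promoter counts depended on the window. Members with a Brn3a promoter peak numbered 8 with promoters of 2000 bp and 1 when only the wider peaks were counted, against 3 as reported. Those with a Runx3 promoter peak numbered 13 with 2000 bp, 4 with 500 bp and 4 with the wider peaks, against 8. When each peak was given to the nearest 5′ end alone, the domains held 147 Brn3a and 69 Runx3 peaks, with 28 Runx3 peaks co-bound, against 244, 123 and 48. The wider peaks alone gave 139, 57 and 24. At Grid1 the Brn3a peaks per Runx3 peak were 1.33 with the wider peaks, against 0.778 as reported. Of 31 alternatives for all members, 20 kept the reported value within 1.5 times or its interval, as did 136 of 189 for single classes. No paired analysis was possible because the lists hold no value per library, and for the same reason no library could be left out. Depth, peak height and replicate spread are unknown, the lists rest on different numbers of libraries, and a peak in the domain of a gene need not act on that gene.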
